A study of Mus musculus with 2 samples.

Results

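The regions described here are the densest clusters of open chromatin in basal cells of mouse skin epidermis. The 19 autosomes were divided into fixed bins of 50 kb from position 0, each peak was assigned to a bin by its midpoint, and every peak of a bin holding 10 or more peaks was taken. This gave 8766 peaks in 782 dense bins, out of 82773 autosomal peaks in 23861 bins with a peak and 84594 distinct peaks in all. The rule used the number and the positions of peaks. It did not use their signal or the difference between the samples, although a peak had to have enough signal to be called. Membership depended on where the bins were laid. With bins shifted by 25 kb, 773 bins held 8607 peaks, and the peaks found by both grids were 47.6% of the members and 48.5% of the shifted set.

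Open chromatin was measured by ATAC-seq, in which the Tn5 transposase inserts sequencing adapters into accessible DNA. One library was labelled control, with wild type as its genotype (WT). The other was labelled Abl, with basal lineage ablation as its genotype. Each was made from 50000 basal cells of skin epidermis, sorted as α6High, CD34-, Lrig1-, YFP+, GFP+ and RFP+, and both titles carry K14, the name of a keratin of the basal layer. The sources used here do not give the transgenes, the way cells were ablated, the time after ablation, or the age and number of the mice. There was 1 library per group, so no difference below has a replicate check and none was tested. Intervals in parentheses are exact 95% intervals that cover counting error only. In bulk cells, a site open in fewer cells and a site less open in each cell cannot be told apart.

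Most open sites away from gene starts are enhancers, short stretches of DNA where transcription factors bind and act on promoters that can lie far away. Enhancers often occur in clusters, called super-enhancers or stretch enhancers, which are known for lying at genes that define a cell type. In the epidermis such genes encode the keratins, adhesion proteins and transcription factors of the basal layer and of the differentiating layers above it. A count of peaks per bin is not a call of super-enhancers, which rests on the signal of activity marks.

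Several dense bins held genes of epithelial microRNAs, small RNAs that repress messages carrying a match to their seed, bases 2 to 8. They are shown because microRNAs of different dense bins share seeds. The mature sequences below are from RefSeq (GRCm38.p6), written 5′ to 3′ with the seed in capitals.

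mmu-miR-205-5p: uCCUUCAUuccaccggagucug
mmu-miR-203-3p: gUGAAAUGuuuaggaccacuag
mmu-miR-200b-3p: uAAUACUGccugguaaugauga
mmu-miR-200c-3p: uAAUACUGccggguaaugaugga
mmu-miR-429-3p: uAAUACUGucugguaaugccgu
mmu-miR-200a-3p: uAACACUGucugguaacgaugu
mmu-miR-141-3p: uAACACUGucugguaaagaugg

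The seed AAUACUG was shared by miR-200b, miR-429 and miR-200c, and the seed AACACUG by miR-200a and miR-141. Genes with these 2 seeds lay in 2 dense bins on different chromosomes. One, on chromosome 4, held Mir200a, Mir200b and Mir429. The other, on chromosome 6, held Mir200c and Mir141. miR-205 and miR-203, each with a seed of its own here, are known as microRNAs of the basal layer and of the differentiating epidermis.

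The 250 bases before the start sites of Dmkn, Krtdap and Mt2 are picked examples of promoters with a peak in the bins. They are shown because each start site lay under a member peak and each window held the heptamer bound by AP-1, a family of dimeric transcription factors whose own genes recur in the dense bins. Only 5.38% of promoter windows under a peak in dense bins held it, so these examples are not typical. Dmkn and Krtdap encode secreted proteins of the differentiating epidermis, and Mt2 a metal-binding metallothionein. The sequences are from RefSeq (GRCm38.p6), plus strand, at chr7:30763506-30763755 for Dmkn, chr7:30787655-30787904 for Krtdap and chr8:94172368-94172617 for Mt2. The heptamer is in capitals. Dmkn has other annotated start sites, and the first is shown.

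Dmkn: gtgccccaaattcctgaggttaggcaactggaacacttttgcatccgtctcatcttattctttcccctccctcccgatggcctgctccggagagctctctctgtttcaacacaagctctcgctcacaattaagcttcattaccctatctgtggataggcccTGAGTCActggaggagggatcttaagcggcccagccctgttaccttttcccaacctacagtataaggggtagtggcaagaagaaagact
Krtdap: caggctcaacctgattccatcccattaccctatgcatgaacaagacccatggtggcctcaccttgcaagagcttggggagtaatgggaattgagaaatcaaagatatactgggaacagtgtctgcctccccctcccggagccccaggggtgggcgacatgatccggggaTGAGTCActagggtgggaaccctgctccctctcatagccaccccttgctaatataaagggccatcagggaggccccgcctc
Mt2: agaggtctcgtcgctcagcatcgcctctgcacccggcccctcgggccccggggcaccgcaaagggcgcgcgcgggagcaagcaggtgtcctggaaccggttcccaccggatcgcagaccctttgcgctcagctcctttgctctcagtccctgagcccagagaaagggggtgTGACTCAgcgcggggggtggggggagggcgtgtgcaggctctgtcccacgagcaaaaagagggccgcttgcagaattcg

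In these windows the heptamer began 89 bases before the start of Dmkn, 81 before that of Krtdap and 79 before that of Mt2. The peak over the Dmkn start had a normalized signal of 207 in the control and 184 in the ablation library, 0.890-fold (0.741 to 1.07), an interval that includes 1. That over the Krtdap start had 685 and 532, or 0.776-fold (0.699 to 0.860). At the Mt2 start the signal was 874 and 773, or 0.884-fold (0.809 to 0.965). The heptamer, searched as TGACTCA and its reverse TGAGTCA, was in 4.42% of 883 promoter windows in dense bins and in 4.09% of all 20085 windows of the same length. Among windows under a peak it was in 5.38% of 706 in dense bins, from 586 genes, and in 3.56% of 12097 in all, from 10279 genes. Windows of the same gene can overlap, as some of Dmkn do, so a heptamer can be counted more than once. The GC box, searched as GGGCGG and CCGCCC, was in 62.2% and 63.1% of the same windows under a peak, and the TATA box, searched as TATAAA and TTTATA, in 5.95% and 5.68%. The core bound by TEAD factors, searched as GGAATG and CATTCC, was in 11.3% and 10.1%. None of these motifs contains another, and a match is a string in the window, not evidence of binding.

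**Figure D1:**
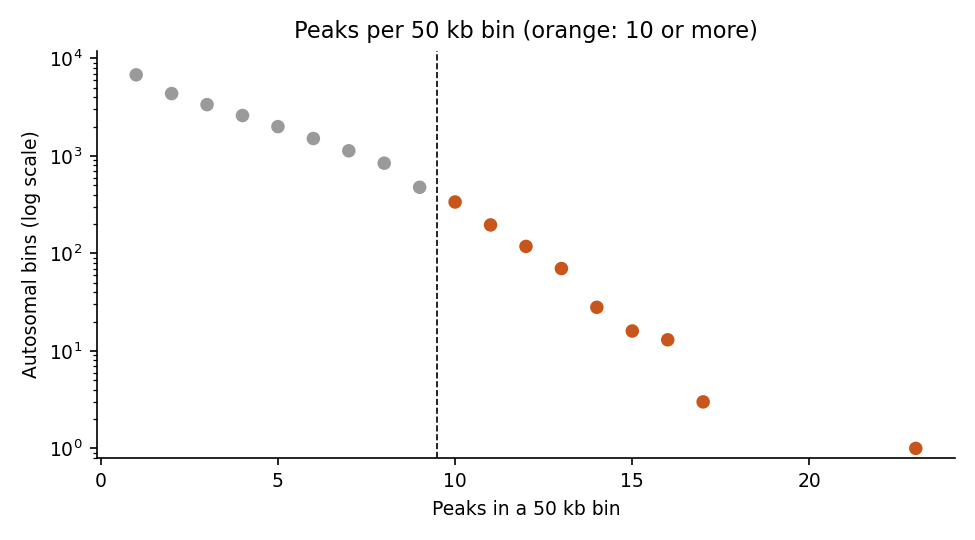
Number of autosomal 50 kb bins (vertical axis, log scale) by the number of peaks in the bin (horizontal axis), with bins of 10 or more peaks in orange. There were 337 bins of 10 peaks and 1 bin of 23, and the dashed line marks the limit of the rule.

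The number of bins fell off steadily with the number of peaks, with no gap at the limit of the rule, as the plot of peaks per bin shows. There were 477 bins of 9 peaks, just outside it, and 337 bins of 10, just inside. Their median control signal, summed over the bin, was 1350 and 1456 normalized reads, and their median log2 ratio of ablation over control was -0.07 and -0.12. Above them, 196 bins held 11 peaks, 118 held 12, and the rest 13 or more. The 782 bins formed 677 loci when neighbouring bins were joined: 592 were single bins, 69 were pairs and 16 were runs of 3 to 5 bins. Chromosome 11 held the most dense bins, 83, with 14.9% of its peaks. Chromosome 6 had the lowest share of its peaks in dense bins, 7.67%.

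Member peaks were not longer than others. The median member peak was 532 bp long, against 556 bp in bins of 5 to 9 peaks and 552 bp in bins of 1 to 4. The rule itself sets close spacing and high coverage, so the next values are a description. The median distance from a peak to the next was 2635 bp in dense bins, against 4508 and 7564 bp. Peaks covered a median of 13.4% of a dense bin, and at most 32.9%.

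Member peaks had more signal and lay less often at genes' start sites than other peaks. Their median control signal was 90.3 normalized reads (quartiles 40.2 and 220), against 62.8 in bins of 5 to 9 peaks and 38.8 in bins of 1 to 4. In the ablation library the medians were 88.9, 66.2 and 42.6, in the same order. A start-site window was overlapped by 7.02% of member peaks, 10.3% of those in bins of 5 to 9 and 15.0% of those in bins of 1 to 4. Close to a gene end, at most 1 kb from the first or last base of a protein-coding gene, lay 13.4%, 16.6% and 20.5%. By decile of mean signal, the share at gene ends was lower for member peaks in all 10 deciles, by gaps of unequal size: 6.67% against 7.37% of the others in the third decile, 11.2% against 17.5% in the seventh, and 31.5% against 63.2% in the top one, which spans a wide range of signal. No single peak made up most of a typical dense bin, since the strongest peak gave a median of 28.9% of its control signal. In 44 bins it gave 50% or more.

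All 8766 members were counted in these descriptions. Of them, 8462 (96.5%) passed the low-signal filter used for single peaks, a mean of the 2 libraries of at least 13.96 normalized reads, against 90.2% of all autosomal peaks. A single member had no read in the control.

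A larger share of the genes listed for the epidermis than of all protein-coding genes lay in dense bins, a comparison of counts with no test. Of 20665 autosomal protein-coding genes, 1203 (5.82%) overlapped a dense bin, and the share stayed between 5.01% and 6.70% from one quartile of gene length to another. Gene lists for the epidermis, which were chosen with earlier results of these data known, had from 25.0% to 50.0% of their genes there. None of 10 housekeeping genes was among them, a list too short to be set apart from the 5.82% of all genes.

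**Figure D2:**
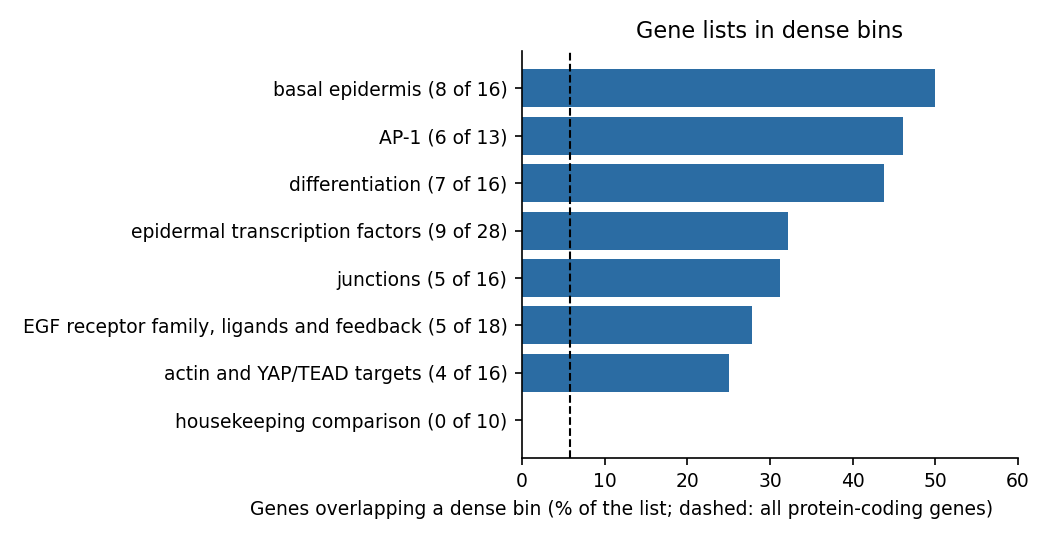
Share of each gene list that overlaps a dense bin (horizontal axis, percent; numbers of genes in parentheses), with the share of all protein-coding genes as a dashed line at 5.82%. Basal epidermis, 8 of 16 genes, is the longest bar. The housekeeping list is at 0, with 10 genes, too few to be set apart from 5.82%.

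Genes of the basal layer gave the highest share, 8 of 16. Among them were the basal keratins Krt5 and Krt15; Col17a1 and Plec, which anchor basal cells to the basement membrane; the hyaluronan receptor Cd44; the transcription factor Bcl11b; and P-cadherin, Cdh3. The AP-1 family followed with 6 of 13: Fos, Fosb, Fosl1, Fosl2, Junb and Atf3. Of genes of the differentiating layers there were 7 of 16, namely the suprabasal keratins Krt1 and Krt2, the transglutaminases Tgm1 and Tgm3, which cross-link the cornified envelope, and Sbsn, Dmkn and Krtdap. Epidermal transcription factors had 9 of 28, among them p63 (Trp63), the master regulator of stratified epithelia, with 2 dense bins, and Tfap2a, Grhl1, Grhl3, Cebpa, Cebpb, Ehf, Nfib and Zfp36l1 (an RNA-binding protein kept on that list). Cell junctions had 5 of 16: E-cadherin (Cdh1), and Dsp, Pkp1, Pkp3 and Perp of the desmosome. The family of the EGF receptor had 5 of 18, the receptor Egfr, its ligands Hbegf and Epgn, the feedback inhibitor Errfi1 and the phosphatase Dusp1. Of actin and YAP targets there were 4 of 16: Actb, Tpm1, Actn1 and Actn4.

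Markers of the sorted cell type were open. All 8 basal markers had peaks over the gene, with summed control signals from 295 to 2720, and 5 of them overlapped a dense bin. Among markers of other cells, Cd34 of the hair follicle bulge had 8.47 in the control and 34.5 in the ablation library, and Cd207, Cd3d, Col1a2, Col3a1, Tyr, Cdh5 and Emcn had no peak. Other genes of the same lists did have signal: Nfatc1 of the bulge had 2048 and 2118, Pmel and Mitf of melanocytes 1652 and 1490 and 1308 and 1192, and the endothelial Flt1 303 and 500, Tek 486 and 310, and Tie1 59.3 and 160. Their part in the results was not tested. As whole lists, summed control signals per gene were 8.47 to 2048 with peaks at 5 of 5 bulge genes, 0 to 1652 at 5 of 7 melanocyte genes, 0 to 464 at 5 of 7 Langerhans and myeloid genes, 0 to 155 at 2 of 5 T cell genes, 0 to 219 at 4 of 7 fibroblast genes and 0 to 1887 at 5 of 7 endothelial genes. In the ablation library the highest values of these lists were 2118, 1490, 359, 130, 198 and 1838. Of all these genes only Pecam1 overlapped a dense bin, with 12 peaks in it and a bin signal of 1737 in the control and 1624 in the ablation library.

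The densest bin of all held 23 peaks and no protein-coding gene, with predicted genes left aside here and in such statements below. It lies at chromosome 19, 5800001 to 5850000, over the nuclear long noncoding RNA Neat1 and an end of another, Malat1, and the nearest protein-coding gene, Frmd8, ends 974 bp away. Its summed signal, the highest of any dense bin, was 9785 normalized reads in the control and 9278 in the ablation library, 0.948-fold (0.924 to 0.973), or a log2 ratio of 0.014 under division by the nuclear total, described below. Its peaks lay on both sides of 1: the strongest, at 5809505 to 5810770, had 1282 and 1067, while that at 5831398 to 5832546 had 337 and 403.

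The next densest bins held 16 or 17 peaks. Bins of 17 peaks were at Lmna, Mex3a and Rab25 (4628 normalized reads in the control and 4400 in the ablation library), at Sipa1l3 (2919 and 2746), and at Afmid, Tk1 and Birc5 (2865 and 2697). Lmna encodes nuclear lamins, Rab25 an epithelial small GTPase, and Tk1 and Birc5 proteins of dividing cells. Their ratios lay between 0.941 and 0.951, and all 3 were above 1 under the nuclear total.

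Among the bins of 16 peaks, that of the metallothioneins Mt1, Mt2 and Mt3 had 5587 normalized reads in the control and 4744 in the ablation library, 0.849-fold (0.820 to 0.879). The bin of Pkp1, the desmosomal plakophilin, had 5257 and 4247, or 0.808-fold (0.779 to 0.838). That of Krt17, a keratin of stressed and follicular epidermis, and Krt42 had 5042 and 4897, or 0.971-fold (0.937 to 1.01), and lay above 1 under the nuclear total. The bin of Dmkn, Krtdap and Sbsn, whose promoters are printed above in part, had 4348 and 3559, or 0.819-fold (0.786 to 0.852). Of these bins, those of Pkp1 and of Dmkn, Krtdap and Sbsn were at least 1.2-fold lower. The other bins of 16 peaks named by rank, at Iffo2, Trim29, Lgals3 and Dlgap5, and Celsr1 of planar cell polarity, had ratios from 0.848 to 0.949, of which those of Lgals3 and Celsr1 were above 1 under the nuclear total.

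Of the 8 bins with the highest control signal, 3 were those of the immediate-early genes Fosb, Fos and Atf3. After the Malat1 and Neat1 bin came those of the scaffold protein Ahnak (6800 normalized reads in the control and 6149 in the ablation library), Fosb (6643 and 5443), Fos (6314 and 5077) and Atf3 (5909 and 4444). The bins of the hyaluronidases Hyal1 and Hyal2 with Rassf1 (5669 and 4933), of Sbno2 (5657 and 5459) and of Aqp3, the aquaglyceroporin of basal keratinocytes (5641 and 5095), completed the 8 strongest. All 8 were lower in the ablation library as deposited, with ratios from 0.752 at Atf3 to 0.965 at Sbno2, and under the nuclear total those of Sbno2 and of Malat1 and Neat1 were above 1. These bins were chosen by the control signal, the denominator of the ratio.

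**Figure D3:**
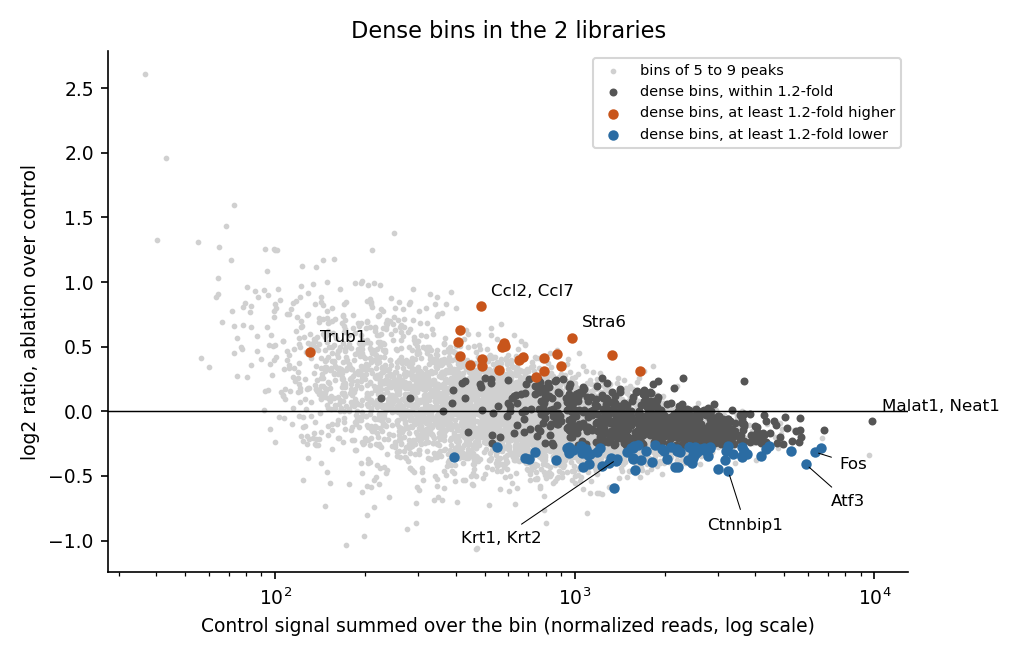
Log2 ratio of ablation over control for each bin (vertical axis) against its summed control signal (horizontal axis, normalized reads, log scale), for the 782 dense bins and for bins of 5 to 9 peaks in light grey. The 22 dense bins at least 1.2-fold higher (orange) have control signals up to 1646, and the 82 at least 1.2-fold lower (blue) reach 6643.

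As deposited, most dense bins differed by less than 1.2-fold between the libraries, 678 of the 782 or 86.7%. The counting interval of the ratio included 1 in 262 bins, lay below 1 in 429 and above 1 in 91. In the ablation library 22 bins (2.81%) were at least 1.2-fold higher and 82 (10.5%) at least 1.2-fold lower. In bins of 5 to 9 peaks 11.5% were higher and 12.5% lower, and in bins of 1 to 4 peaks 28.7% and 22.6%. Over all autosomal bins the shares were 23.5% and 19.7%. Bins of 5 to 9 and of 1 to 4 peaks had less signal, with median control sums of 771 and 107 normalized reads. Their counting error was larger, and no comparison of bins at like signal was made. In dense bins the summed signal ranged from 131 to 9785 normalized reads in the control, median 1715. In the ablation library it ranged from 180 to 9278, median 1608. The log2 ratio had a median of -0.10 and quartiles of -0.19 and -0.0027, with 591 bins below 0 and 191 above. Its SD over dense bins was 0.17, against 0.26 in bins of 5 to 9 peaks. Counting error alone gave a median SD of 0.045 and 0.067 in these, and 0.175 in bins of 1 to 4 peaks. Pooled over all members, the ratio was 0.924 (0.922 to 0.926), and over all autosomal peaks 0.940 (0.939 to 0.940).

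The direction of these counts rests on how the libraries are scaled. The deposited values gave 22 higher and 82 lower bins. Division by the total of all nuclear peaks gave 53 and 26, and centring on bins of 5 or more peaks gave 46 and 33, so higher bins made up 21.2%, 67.1% and 58.2% of the bins past 1.2-fold. Division by the total of the whole table, mitochondrial peaks included, shifted every bin by -0.34 on the log2 scale and gave 2 higher and 670 lower. Shares over all autosomal bins are given above for the deposited scaling alone. Mitochondrial peaks held 7.31% of the control reads and 31.2% of the ablation reads. Each of these scalings shifts all bins by the same amount, between -0.34 and 0.09 on the log2 scale. The 82 lower bins lay at least 0.26 below 0, so none could change sign. Of the 22 higher ones 18 kept their sign.

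The ratio was lower in bins with more control signal, which is its denominator, so the quartiles below are not independent of the ratio. In the quartile of dense bins with the lowest control signal, median 842 normalized reads, the median log2 ratio was 0.01, and 20 of the 22 higher bins were there. In the quartile with the highest, median 3077, it was -0.17, with 30 of the 82 lower bins. Single peaks showed the same order: among peaks in the lowest decile of mean signal, the median log2 ratio was 0.12 in dense bins and 0.20 elsewhere, and in the highest -0.19 and -0.18. In each of the 10 deciles the median of dense bins was the lower one. The part of signal in the ratios of single bins was not tested.

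**Figure D4:**
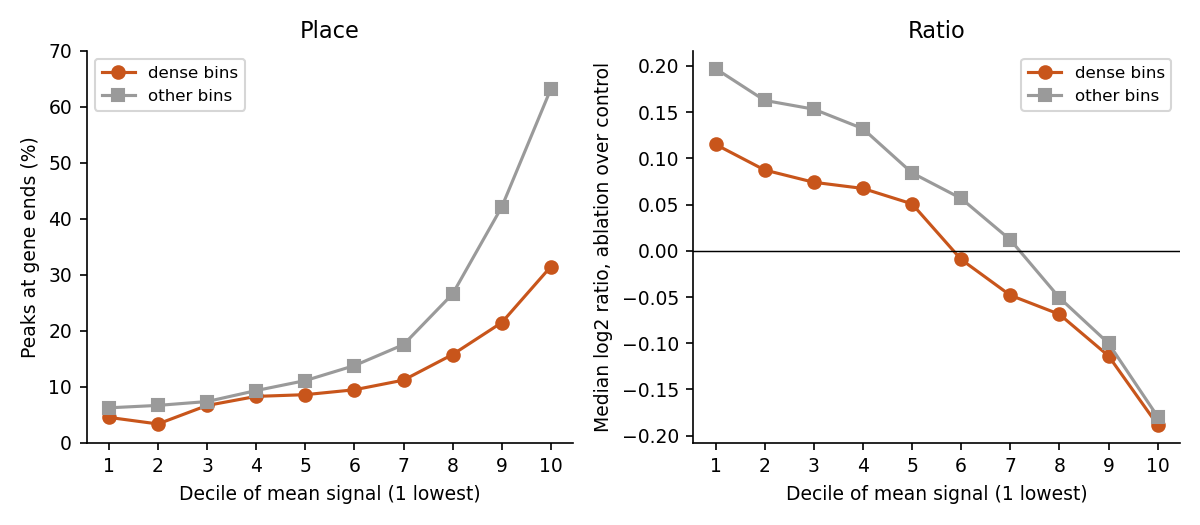
Share of peaks at gene ends (left, percent) and median log2 ratio of ablation over control (right) by decile of mean signal (horizontal axis, from lowest to highest), for peaks of dense bins and for all other autosomal peaks that passed the low-signal filter. The median log2 ratio goes from 0.12 to -0.19 in dense bins and from 0.20 to -0.18 elsewhere, and the share at gene ends in the highest decile is 31.5% and 63.2%.

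Among single members, 177 of the 8462 that passed the filter (2.09%) were at least 2-fold higher and 109 (1.29%) at least 2-fold lower, against 4.50% and 1.85% of all tested autosomal peaks. Members have more signal than other peaks, and 2-fold differences were rarer at high signal. In the lowest decile of mean signal 10.4% of members and 14.3% of other peaks were higher, and 8.33% and 5.61% lower. In the second decile 4.84% and 4.18% were lower, and in the third 2.64% and 3.08%. With the trend with signal removed, 119 members were higher and 163 lower. No share over all peaks is given beside these counts, so they are not a result about the members. The 177 and 109 peaks were scattered. In 559 bins there was none, in 138 at least 1 was higher and in 96 at least 1 lower, with 11 bins holding both kinds. No bin held more than 2 lower peaks, and 5 bins held 3 or more higher ones.

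The bin with the highest ratio was that of Ccl2 and Ccl7, chemokines that attract monocytes, at chromosome 11, 82000001 to 82050000. Its 10 peaks summed to 486 normalized reads in the control and 853 in the ablation library, 1.76-fold (1.59 to 1.94). The signal was higher at 9 of the 10 peaks, and 4 of the 9 that passed the filter were at least 2-fold higher. The largest of these differences was at 82032884 to 82033355, upstream of Ccl2, with 40.2 and 105 normalized reads, 2.62-fold (1.89 to 3.66). The strongest control peak of the bin, at 82035353 to 82035841 at an end of a gene, had 100.2 and 157, or 1.57-fold (1.25 to 1.97).

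**Figure D5:**
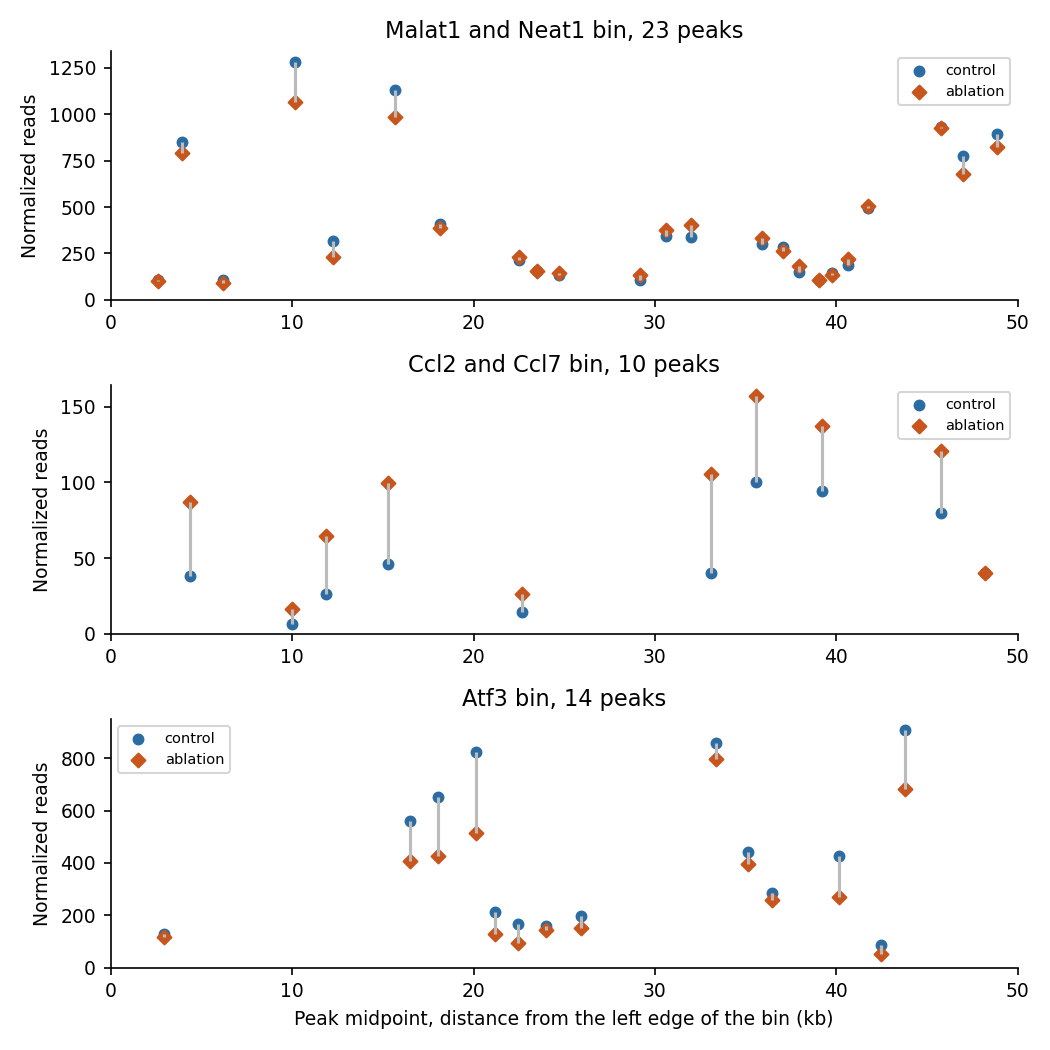
Normalized reads of each peak (vertical axis) in the control (blue circles) and the ablation library (orange diamonds) against the distance of its midpoint from the left edge of the bin (kb), in the bins of Malat1 and Neat1, of Ccl2 and Ccl7, and of Atf3. In the Ccl2 and Ccl7 bin 9 of 10 peaks are higher in the ablation library, and the Atf3 bin summed to 5909 and 4444.

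The other bins with high ratios were also weak in the control, the denominator of the ratio. They were those of Stra6, a membrane receptor for retinol uptake (977 normalized reads in the control and 1452 in the ablation library, 1.49-fold), Plk2, a polo-like kinase (409 and 594, 1.45-fold), Edar, the ectodysplasin receptor of hair and gland formation (579 and 834, 1.44-fold), Frmd4b (586 and 833, 1.42-fold) and the tetraspanin Tspan32 (571 and 806, 1.41-fold). A bin 7352 bp from Apip, an enzyme of methionine salvage, had 414 and 641, or 1.55-fold. None of these was above the median dense bin in control signal. The eighth, 2892 bp from Trub1, had the lowest control signal of all dense bins, 131, and 180 in the ablation library, 1.38-fold (1.12 to 1.69). Of its 10 peaks 6 came from the first of the 3 runs of the deposited table, and with peaks of the third run alone its log2 ratio was -0.014.

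The deposited table consists of 3 runs of peaks, told apart by where the order of the peak names starts anew. What sets the runs apart is unknown from the sources used here. Peaks of the first run had a median log2 ratio of 0.76 over the whole table, those of the second -0.50 and those of the third -0.03. The first run made up 7.42% of member peaks, but 17.8% of those in the 22 higher bins. The second made up 9.31% of members and 12.5% of those in the 82 lower bins. With the third run alone the same 782 bins gave 20 higher and 88 lower. Over single peaks it left 80 at least 2-fold higher and 37 lower. Shares over all bins and all peaks of the third run are not given beside these counts.

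The lowest ratio was in a bin with no protein-coding gene within 50 kb, at chromosome 13, 53650001 to 53700000. The nearest gene, 177 kb away, is Msx2, a homeobox factor of skin appendages. Its 12 peaks summed to 1350 normalized reads in the control and 894 in the ablation library, 0.662-fold (0.613 to 0.716). The strongest, at 53662682 to 53663502, had 382 and 216, and that at 53659254 to 53659716 had 176 and 86.2, or 0.490-fold (0.383 to 0.624). Signal was lower at 10 of the 12 peaks.

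The other bins with low ratios were stronger in the control, the denominator, than those with high ones. That of Ctnnbip1, an inhibitor of beta-catenin, and Lzic had 3253 normalized reads in the control and 2358 in the ablation library, 0.725-fold (0.691 to 0.761). The bin of Serpinb2, an inhibitor of plasminogen activators, and Serpinb10 had 1591 and 1164, or 0.731-fold (0.682 to 0.784). That of Acsbg1, an acyl-CoA synthetase, and Idh3a had 2997 and 2199, or 0.734-fold. Bins of the calcium pump Atp2b4, of Tmem45a, of Crnn, a protein of the cornifying layers, and one 40739 bp from Sv2b had ratios from 0.740 to 0.745. A single peak gave 57.7% of the control signal in the Atp2b4 bin and 57.5% in the Crnn bin. Without it the log2 ratio of the Crnn bin was -0.10. The median log2 ratio of a bin's peaks was -0.37 in the Atp2b4 bin, -0.014 in the Crnn bin and -0.18 in that of Serpinb2, where the summed signal gave -0.45.

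Higher and lower bins differed in other respects too. The control median was 583 normalized reads (131 to 1646) in the 22 higher bins and 2067 (396 to 6643) in the 82 lower ones. Control signal is the denominator of the ratio that chose these bins. At gene ends lay 4.55% of the peaks of higher bins, 9.97% of those of lower bins and 14.1% of those of the bins between. This share also went with control signal. It was 9.53% in the quartile of dense bins with the lowest control signal, which held 20 of the 22 higher bins, and 18.3% in the highest. In the higher bins 38 of 225 tested peaks (16.9%) were at least 2-fold higher, while in the lower bins 26 of 889 (2.92%) were at least 2-fold lower. These peaks belong to the sums that chose the bins, so their shares are a description.

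By gene list, dense bins of AP-1, junction and differentiation genes had the lowest ratios. The 6 bins of AP-1 genes had a median log2 ratio of -0.29, all below 0 and 4 at least 1.2-fold lower. Over all 782 dense bins the median was -0.10, with 591 below 0 and 82 at least 1.2-fold lower. Under division by the nuclear total 5 of the 6 were below 0 and 1 was at least 1.2-fold lower, against 418 and 26 of all 782. Atf3 had a ratio of 0.752 (0.726 to 0.779), Fos 0.804 (0.778 to 0.832), Fosb 0.819 (0.793 to 0.846), Fosl2 0.819 (0.778 to 0.862), and the bin of Fosl1 0.939 (0.899 to 0.981). That of Junb had 5455 normalized reads in the control and 4908 in the ablation library. The median control signal of these 6 bins was 5682 normalized reads, against 1715 over all dense bins, and the strongest quartile of dense bins had a median of -0.17. The part of signal in the AP-1 values was not tested.

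The 6 bins of junction genes had a median log2 ratio of -0.27, all below 0 and 4 at least 1.2-fold lower. Of these 4, 2 were neighbouring bins of Pkp1. Under division by the nuclear total all 6 were below 0 and none was past 1.2-fold. Their median control signal was 3273 normalized reads, against 1715 over all dense bins, and the quartile of dense bins with the highest control signal had a median log2 ratio of -0.17. Perp had 2510 normalized reads in the control and 2000 in the ablation library, 0.797-fold (0.755 to 0.840). Cdh1 had 3619 and 2991, or 0.826-fold (0.791 to 0.864), and Dsp 2329 and 2010, or 0.863-fold (0.817 to 0.911). The 4 bins of differentiation genes had a median of -0.28, with all below 0, or 3 of 4 under the nuclear total. Their median control signal was 2418 normalized reads. The part of signal in the junction and differentiation values was not tested. The bin of Krt1 and Krt2, 16 peaks, had 1382 and 1068, or 0.773-fold (0.718 to 0.831), while that of Tgm3 had 1982 and 1946, or 0.981-fold (0.927 to 1.04). Within the first of these bins the genes differed. Peaks over Krt1 itself had more signal in the ablation library, 196 in the control and 239, and those over Krt2 had less, 408 and 295.

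Bins of the basal layer and of transcription factors lay closer to 1, with median log2 ratios of -0.06 over 9 and over 11 bins. As deposited, 8 of the 9 basal bins and 10 of the 11 factor bins were below 0, and under the nuclear total 2 and 5, beside 591 and 418 of all 782. Within the basal list the bins of a keratin and of an anchoring collagen lay on opposite sides. Krt5 had 1903 normalized reads in the control and 2236 in the ablation library, 1.18-fold (1.11 to 1.24), and Col17a1 had 1663 and 1278, or 0.768-fold (0.719 to 0.821). The bins of Trp63 had 773 and 762, and 1285 and 1256, with intervals that include 1. Grhl1, a grainyhead factor of the epidermal barrier, had 2466 and 1867, or 0.757-fold.

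The 5 bins of the EGF receptor family had a median log2 ratio of -0.11, all below 0, also under the nuclear total. Hbegf had 3201 normalized reads in the control and 2591 in the ablation library, 0.810-fold (0.772 to 0.849), and Egfr 1456 and 1355, or 0.931-fold (0.870 to 0.995). The 4 bins of actin and YAP targets had a median log2 ratio of -0.05, with 2 above 0 and 2 below, also under the nuclear total. That of Actn1, an alpha-actinin that cross-links actin, was at least 1.2-fold higher, with 789 and 1048, or 1.33-fold (1.22 to 1.44). The bin of Tpm1 had a ratio of 1.07, that of Actn4, another alpha-actinin, 0.877, and that of Actb 0.843.

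The microRNA bins were chosen after their values were seen. The bin of Mir205, with 13 peaks and no protein-coding gene, had 2897 normalized reads in the control and 2772 in the ablation library, 0.957-fold (0.913 to 1.00). That of Mir203, with 10 peaks, had 3771 and 2998, or 0.795-fold (0.761 to 0.830), which is at least 1.2-fold lower. The bins of the shared seeds were nearly equal between the libraries: 1886 and 1868 for Mir200b, Mir200a and Mir429, and 3134 and 3009 for Mir200c and Mir141. Over all miRNA genes, 71 of 1136 (6.25%) were in dense bins, and of lncRNA genes 616 of 12408 (4.96%).

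Neighbouring dense bins formed 16 loci of 150 kb or more. The longest, 5 bins with 61 peaks at chromosome 1, 135700001 to 135950000, runs over Csrp1, Tnni1, Lad1, Tnnt2 and Pkp1. Lad1 encodes a protein of basement membrane anchoring and Pkp1 the plakophilin described above, while the troponins Tnni1 and Tnnt2 are known from muscle. The locus had 17356 normalized reads in the control and 15063 in the ablation library, 0.868-fold (0.851 to 0.885), and 2 of its 5 bins were at least 1.2-fold lower.

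Loci of 4 bins lay at Cebpb, a factor of epidermal differentiation, with 45 peaks (10035 normalized reads in the control and 9176 in the ablation library, 0.914-fold), and at Nfix and Calr, with 44 peaks (6961 and 6574, 0.944-fold). The Cebpb locus extends over 2 bins with no protein-coding gene. Of the 13 loci of 3 bins, those of Itprid2 (0.830-fold), of the calmodulin-like genes Calml3, Calm4 and Calm5 with Net1 (0.849-fold) and of Aff1 (0.873-fold) were the lowest. As deposited, only that of Nxn had more signal in the ablation library, 3173 and 3369, or 1.06-fold (1.02 to 1.11). The remaining 9, at Plekha6, at Fat2 and Sparc, at Aspscr1 and Notum, at Cxcl14 and Slc25a48, at Wnt7b and Ppara, at Celsr1 and Gramd4, at Tmprss2 and Ripk4, at Efna1, Efna3 and Efna4, and at Cd9 and Vwf, had ratios from 0.898 to 0.986. Under the nuclear total the loci of Sparc, Cxcl14, Wnt7b, Celsr1 and Cd9 were also above 1, as was that of Nfix and Calr. The Cxcl14 locus held 1 bin at least 1.2-fold higher, while those of Itprid2, Calml3 and Aff1 held 2, 2 and 1 lower. Ripk4 is a kinase needed for epidermal differentiation, Wnt7b a Wnt ligand of the epidermis, and Cxcl14 a chemokine made by keratinocytes.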

How the data were processed

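ATAC-seq signal per peak was used from 1 control and 1 ablation library. The deposited table gives the authors' normalized signal, on the mm10 build. Per the submitters' processing notes, MACS2 2.1.0.20151222, HTSeq, Picard, Trimmomatic and Bowtie2 2.3.4.2 were used, with roles and settings not given in the sources used here. Nor do these state the normalization or whether peak starts count from 0 or 1. The value columns were matched to the libraries by CTRL and by Exp, while the titles say CTRL and Abl and the control column carries another number than its title. The table's 116411 rows were reduced to 84594 distinct peaks.

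Values were whole multiples of a step (0.706 in the control, 0.907 in the ablation library) within 0.1 read, for 100% and 99.998% of values, so reads were recovered: 18402788 and 18127121 in peaks, 17056996 and 12463908 of them nuclear. Member peaks had medians of 128 and 98 reads, and 3 reads, the limit that a count of 0 allows, equal 2.12 and 2.72 normalized reads. Intervals of ratios are exact (Clopper-Pearson, 95%) and cover counting error only, since PCR copies are not independent molecules.

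Ratios are log2 of summed signal plus a pseudocount of 1, and single peaks were kept at a mean at or above the 10th percentile. With 1 library per group no test was made. Bins were described at a fold of 1.2 and single peaks at 2-fold. Bins are named by overlapping protein-coding genes, else by the nearest within 50 kb. Predicted genes were left out of these names and of the genes counted per bin. The text names the 12 bins with most peaks, the 8 with the highest control signal, the 8 highest and 8 lowest ratios, runs of 3 or more bins, and bins of listed genes. The members and lists were chosen with earlier results of these data known. Genes, promoters and miRNAs are from RefSeq GRCm38.p6, the assembly behind mm10, and no genome sequence was used. Alternatives changed the grid, the limit, the scaling, the filter, the pseudocount and the fold, used the median or left out the strongest peak, and removed the trend with signal. The use of the third run alone was added after seeing the data. The scripts, in Python 3.11.15 with numpy 2.4.6, pandas 2.3.3, scipy 1.17.1 and statsmodels 0.14.6, were tested on simulated data.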

Additional observations from a re-analysis of the deposited data

Results flagged for a closer look

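Mitochondrial peaks, which no bin of the comparison uses, held 31.2% of the ablation library's reads in peaks (31.2 to 31.3), above the 7.31% of the control. This is a signal outside the main measurement, in 3 peaks of the mitochondrial genome.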

How the results depend on the processing

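No paired analysis was possible because each group has 1 library, so no replicate could be left out either. A limit of 8 peaks gave 2102 bins with 19803 peaks, 116 higher and 244 lower bins, 3083 protein-coding genes and 67 listed genes, and a limit of 12 gave 249 bins with 3240 peaks, 7 higher and 27 lower. Division by the table total gave 2 higher and 670 lower bins, a median log2 ratio of -0.44, and 53 higher and 430 lower peaks. Division by the nuclear total gave 53 and 26 bins and a median of -0.013, and centring on bins of 5 or more peaks 46 and 33. Higher and lower bins numbered 35 and 61 by the median of a bin's peaks after removal of the trend with signal, 50 and 76 by that median alone, and 47 and 72 without the strongest peak. At a fold of 1.5 there were 2 higher bins and 1 lower. Single peaks numbered 112 higher and 60 lower with the filter at the 25th percentile, 112 and 61 with a pseudocount of 5, 654 and 603 at 1.5-fold, 80 and 37 in the third run alone, and 119 and 163 after removal of the trend. The bin near Trub1 turned to -0.014 in the third run alone, the sole one of the 21 named bins past 1.2-fold to change sign in these alternatives. Of the named bins within 1.2-fold, 8 changed sign under the nuclear total. By the median with the trend removed 8 of the 21 lay within 1.2-fold, by the median alone 3 did, and under the nuclear total 4 did. The cause was not tested. Shares over all bins or peaks are not given for these alternatives. Depth limits the weak bins most.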

Other observations

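Some dense bins lay away from protein-coding genes, predicted genes left aside. The share of other bins with no such gene was not computed. In 114 of the 782 no protein-coding gene overlapped the bin, and in 35 of these none lay within 50 kb. Their median control signal was 1476 normalized reads. The bin farthest from a gene, 490 kb from Actl7b, lies at chromosome 4, 56200001 to 56250000, and had 10 peaks with 1119 normalized reads in the control and 843 in the ablation library, 0.753-fold (0.694 to 0.817). A bin of 15 peaks, 146 kb from Barx2, a homeobox factor, was among the strongest of them, with 4026 and 3430, or 0.852-fold (0.818 to 0.888). At the other end, 73 bins overlapped more than 3 genes.

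The Hox clusters, whose homeobox genes set position along the body, held 6 dense bins of 10 to 13 peaks. Their log2 ratios ran from -0.07 to 0.21, and the highest was at Hoxa10 and Hoxa11, with 1829 normalized reads in the control and 2118 in the ablation library. A further 3 bins of 10 or more peaks lay on the X chromosome and were left out by the rule.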
